A study of Homo sapiens with 6 samples.

Results

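Connexins are the proteins that build gap junctions, and 5 of their genes were examined here: GJA1, GJB1, GJB2, GJB5 and GJB6. They were listed by name, and every probe set whose single platform gene symbol was one of them was taken. GJA1, GJB1 and GJB5 had 1 probe set each, so 3 of 22215 probe sets and 3 of 11963 named genes belong to the group. No probe set used here has GJB2 or GJB6 as its single symbol, so both were not analysed here.

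RNA came from cells labelled HSC2, a long-established line from a human squamous carcinoma of the mouth, and was hybridised to 6 single-colour Affymetrix arrays, 1 per sample. In 3 samples the cells are labelled as stably transfected with full-length wild-type MALT1, a paracaspase of NF-kappaB signalling, and in the other 3 with the vector alone (mock). All 6 were grown in the same serum-containing medium. As labelled, the comparison asks which genes differ between cells with the MALT1 construct and cells with the vector alone. The labels name neither the promoter of the construct nor whether each line is 1 clone, and they do not say that samples of a group were separate cultures, so the spread behind each p-value may be technical.

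Each connexin spans the membrane several times, and a ring of connexins forms a hemichannel that docks with a hemichannel of the neighbouring cell. The docked channel lets ions, second messengers and small metabolites pass from cell to cell. Stratified squamous epithelium carries several connexins: GJA1 encodes connexin 43, the most widely expressed family member and a connexin of basal and spinous keratinocytes, GJB5 encodes connexin 31.1 of keratinocytes, and GJB2 and GJB6 encode connexins 26 and 30, which are shared by skin and inner ear. GJB1 encodes connexin 32, a connexin of hepatocytes, glandular epithelium and myelinating Schwann cells.

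The groups differed far beyond the connexins. Of all probe sets, 35.6% passed an adjusted p of 0.05 in either direction, 17.0% falling and 18.6% rising from mock to MALT1 label, and the groups did not overlap in 49.7%. The balance depends on scaling, with 4193 probe sets lower and 3179 higher after median centring against 3787 and 4130 as deposited. The MALT1 transcript itself fell in 2 of its 3 probe sets (log2 fold changes −1.08 ± 0.12 and −0.47 ± 0.08 SE). It did not pass in the third (−0.28 ± 0.10 SE, limma adjusted p = 0.097). This direction is opposite to the one the labels name, and whether these probe sets read the construct was not checked. The groups are therefore named by label only. A signal of 17.6, the highest of a bacterial control transcript on any array, serves here as the limit below which a signal is called dim. It was read on MALT1 replicate 3, and the highest control signal of each other array was 6.13 to 14.7. On MALT1 replicate 3, 25.6% of probe sets were dim against 31.7% to 33.3% on the other arrays. Fold changes are differences of log2(signal + 1), MALT1 minus mock, tested with limma across all probe sets.

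GJA1 and GJB5 were both lower on the MALT1-labelled arrays, GJA1 by 8.70-fold and GJB5 by 3.67-fold, and GJB1 was dim on all 6 arrays. Thus 2 of the 3 measured connexins fell, beside 17.0% of all probe sets that fell in this comparison, and the same 2 had groups that did not overlap, beside 23.3% of all probe sets without overlap in that direction. Whether fewer cells carried a transcript or each cell carried less of it cannot be told apart in these bulk samples.

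GJA1 read 3451, 3624 and 3272 on mock replicates 1 to 3. On MALT1 replicates 1 to 3 it read 358, 408 and 426. The groups were far apart, and the lowest mock array was 7.68 times the highest MALT1-labelled array, whereas arrays of a group differed by at most 1.19 times. The means were 397 ± 35.2 with the MALT1 label and 3449 ± 176 with the mock label (SD, n = 3 each), a log2 fold change of −3.12 ± 0.11 SE (95% interval −3.39 to −2.85, limma adjusted p = 7.1e-05). Only 0.725% of all probe sets had a lower log2 fold change. GJA1 was still well above the dim limit on every MALT1-labelled array.

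GJB5 read 175, 163 and 203 on mock replicates 1 to 3. On MALT1 replicates 1 to 3 it read 45.8, 48.9 and 52.1. Again no arrays of the 2 groups overlapped, and the lowest mock array was 3.12 times the highest MALT1-labelled array. The means were 48.9 ± 3.16 against 180 ± 20.9 (SD, n = 3 each), a log2 fold change of −1.86 ± 0.12 SE (95% interval −2.16 to −1.55, limma adjusted p = 0.00034), and 4.08% of all probe sets had a lower one. GJB5 was above the dim limit on all 6 arrays.

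GJB1 read 7.71, 6.50 and 5.72 on MALT1 replicates 1 to 3. It read 10.9, 11.5 and 3.24 on mock replicates 1 to 3. The groups overlapped, every value lay under 17.6, and no fold is given (limma adjusted p = 0.82). GJB1 thus stayed under the dim limit in both groups, although its difference passed without mock replicate 3 (limma adjusted p = 0.036). On mock replicate 1 and MALT1 replicate 1 it was above the highest control signal of that array (7.10 and 6.13). On the other arrays it was not.

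**Figure D1:**
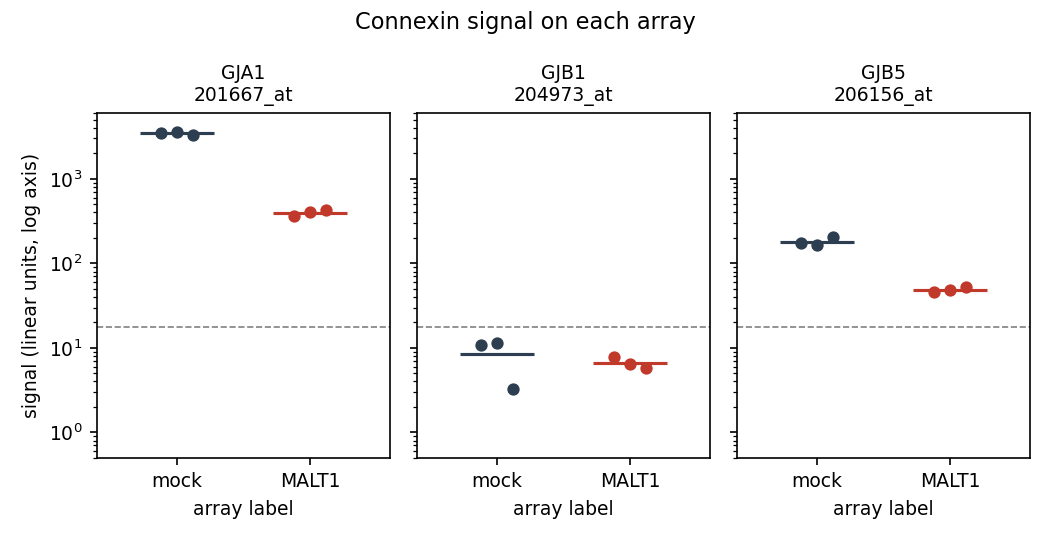
Signal of the 3 measured connexins on each array (y axis, linear signal units on a log axis; x axis, array label); points are arrays, short lines are group means of 3 arrays, and the dashed line is the dim limit of 17.6. GJA1 and GJB5 are separated between the groups, and all 6 points of GJB1 lie under the dashed line.

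**Figure D2:**
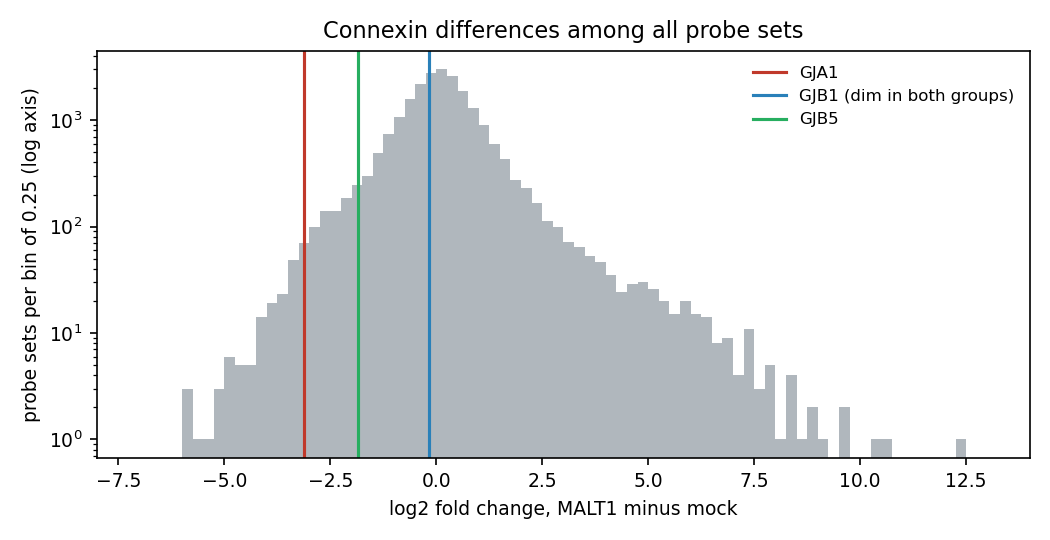
Distribution of the log2 fold change (x axis, MALT1 minus mock) over 22215 probe sets, with the number of probe sets per bin on a log y axis and the connexins as vertical lines. GJA1 at −3.12 and GJB5 at −1.86 lie in the lower tail, and the line of GJB1, dim in both groups, lies near the centre.

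The bases just upstream of the start site are shown for GJA1 as the member that fell most, for GJB1 as the member dim throughout, and for PANX1, a related channel gene described next, because it fell too. Sequences are from RefSeq (GRCh38.p14), 250 bases before the annotated start, 5′ to 3′ on the gene's strand; the table used has no entry for GJB5 or GJC1. Capitals mark letters that match one of 5 motifs, searched on both strands: AP-1 (TGANTCA), the GC box (GGGCGG), the TATA box (TATAAA), the T-box element (AGGTGTGA) and the HNF1 element (GTTAAT). No overlap occurred between matches of different motifs in these windows.
GJA1, chr6:121435396-121435645, plus strand: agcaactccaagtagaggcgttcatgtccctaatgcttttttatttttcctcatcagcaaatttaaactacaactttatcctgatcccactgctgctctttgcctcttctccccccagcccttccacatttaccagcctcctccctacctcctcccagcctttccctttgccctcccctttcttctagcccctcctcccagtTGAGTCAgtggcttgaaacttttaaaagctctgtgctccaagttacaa
GJB1, chrX:71214989-71215238, plus strand: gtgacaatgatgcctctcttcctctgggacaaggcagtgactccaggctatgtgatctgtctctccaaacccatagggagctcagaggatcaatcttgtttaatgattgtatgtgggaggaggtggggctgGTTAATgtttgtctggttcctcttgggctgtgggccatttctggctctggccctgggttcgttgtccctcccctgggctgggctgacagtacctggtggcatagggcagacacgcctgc
PANX1, chr11:94128591-94128840, plus strand: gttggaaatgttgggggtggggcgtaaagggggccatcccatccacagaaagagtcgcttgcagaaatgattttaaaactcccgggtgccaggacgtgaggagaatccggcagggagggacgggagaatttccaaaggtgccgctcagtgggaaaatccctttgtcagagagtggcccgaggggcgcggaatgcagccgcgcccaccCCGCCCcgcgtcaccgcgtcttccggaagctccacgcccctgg
GJA1 has a single match, the AP-1 motif starting 48 bases before the start, which 6.57% of all 35116 promoter windows of this length also hold. GJB1 has an HNF1 element starting 119 bases before its start, found in 6.23% of windows. PANX1 has a GC box starting 43 bases before its start, found in 42.6% of windows. The T-box element (0.786% of windows) and the TATA box (10.7%) had no match in these 3 windows. A match describes letters only and is not evidence of binding.

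Of 19 other connexin and pannexin genes listed, 6 had a probe set of their own: 2 fell, 0 rose and 4 did not pass, where 19.2% of all genes fell and 21.1% rose by their brightest probe set. By limma at an unadjusted p under 0.05 the count of higher genes by brightest probe set was also 0. The less bright GJA4 probe set was higher by that measure (limma unadjusted p = 0.043, adjusted p = 0.10). It was dim on all mock arrays. The genes that fell were PANX1 and GJC1. The median log2 fold change of the 6 genes was 0.19, and −0.01 with dim genes set at their bound, against 0.08 and 0 over all genes.

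PANX1, which forms ATP-releasing membrane channels related in shape to connexin hemichannels, read 1039, 1143 and 1147 on the mock arrays and 328, 326 and 342 on the MALT1-labelled arrays. The MALT1-labelled arrays lay close together and well below every mock array, and the fall was 3.34-fold (log2 fold change −1.74 ± 0.09 SE, limma adjusted p = 0.00016). GJC1, connexin 45 of cardiac conduction tissue and smooth muscle, read 107, 97.9 and 111 on the mock arrays and 4.64, 2.89 and 26.5 on MALT1 replicates 1 to 3. The groups did not overlap, but 2 of the 3 MALT1-labelled arrays were dim, and the log2 fold change of −3.65 ± 0.77 SE rests on them (limma adjusted p = 0.017). Its size is therefore not well determined, at −2.25 with a pseudocount of 16 and −4.51 without MALT1 replicate 3. The call was lost without any 1 of MALT1 replicate 1 and mock replicates 1, 2 and 3 (adjusted p = 0.059, 0.058, 0.055 and 0.058). The array above the dim limit was MALT1 replicate 3, the one with the fewest dim probe sets; the part of this in the result was not tested.

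GJD2, connexin 36 of neurons and pancreatic beta cells, read 52.3, 39.1 and 52.3 on the MALT1-labelled arrays and 61.2, 40.0 and 44.8 on the mock arrays. The groups overlapped, and the 95% interval of the log2 difference was −0.55 to 0.53 (limma adjusted p = 0.97). The vascular connexin GJA5 was dim on all 6 arrays. The vascular connexin GJA4 and the lens connexin GJA3 were dim on all mock arrays and above the limit on a single MALT1-labelled array, replicate 3 for both probe sets of GJA4 (34.9 and 24.8) and replicate 2 for GJA3 (22.7), whose x_at probe set can bind other transcripts. No fold is given for these.

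**Figure D3:**
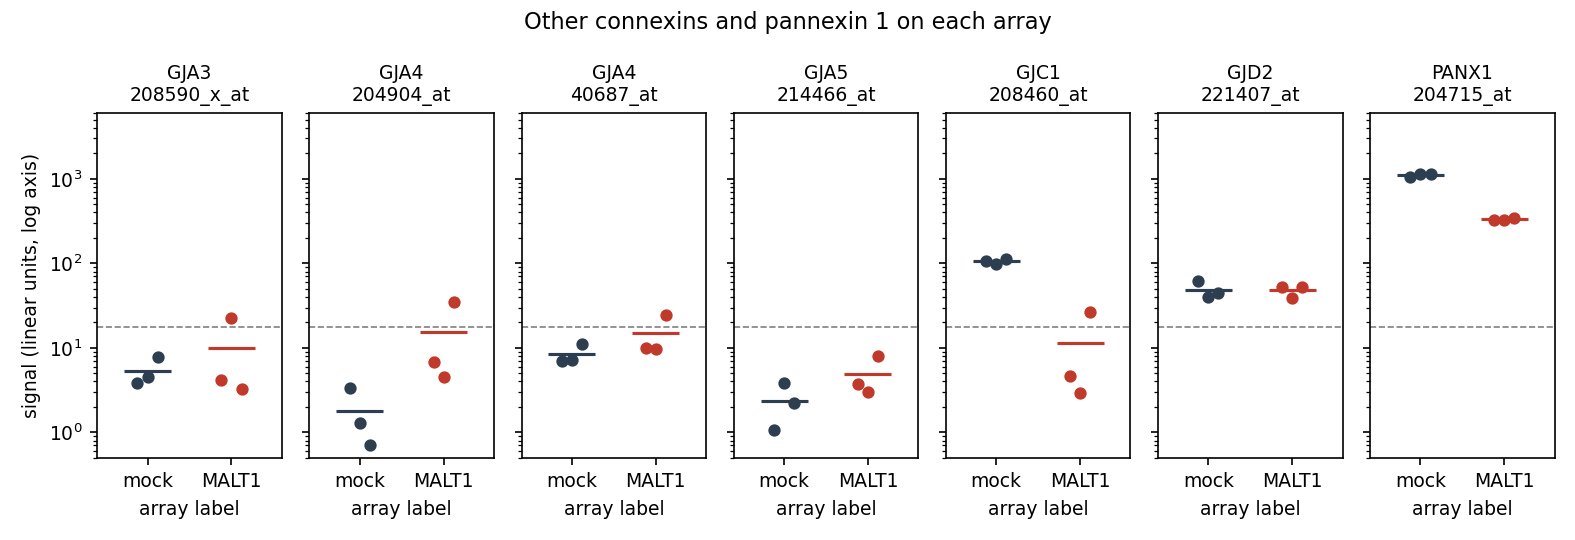
Signal of each probe set of the other measured connexins and of PANX1 on each array (y axis, linear signal units on a log axis; x axis, array label); points are arrays, short lines group means, the dashed line the dim limit of 17.6. PANX1 and GJC1 separate between the groups, GJD2 overlaps, and GJA3, GJA4 and GJA5 lie mostly under the line.

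Of 4 measured direct neighbours of the members on the chromosome, 1 rose and 3 did not pass, where 21.1% of all genes rose. In the gene table GJB2 and GJB6 stand side by side between GJA3 and CRYL1. CRYL1, a sugar-metabolising crystallin relative, averaged 235 ± 44.8 under the MALT1 label and 117 ± 18.9 under mock (SD, n = 3 each), and rose (log2 fold change 0.99 ± 0.20 SE, limma adjusted p = 0.014). Beside GJB1, ZMYM3 read 100.5 ± 10.6 against 115 ± 17.3 and did not pass (adjusted p = 0.40), and the neuroligin NLGN3 was dim on all but mock replicate 2. The direct neighbours of GJA1, TBC1D32 and HSF2, were not analysed here.

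Transcripts of proteins that hold, anchor or turn over gap junction plaques went both ways. Among 22 connexin partners with a value, 6 rose, 7 fell and 9 did not pass, beside 21.1% of all genes that rose and 19.2% that fell, with a median log2 fold change of −0.30 against 0.08 over all genes. The caveolins bind connexin 43 in lipid rafts, and both fell: CAV2 from 10104 ± 594 to 1543 ± 66.2 and CAV1 from 17855 ± 869 to 4924 ± 481 (log2 fold changes −2.71 ± 0.09 and −1.86 ± 0.11 SE, limma adjusted p = 6.9e-05 and 0.00025). Vinculin (VCL), an actin linker of adherens junctions, fell from 2408 ± 51.7 to 827 ± 25.7. E-cadherin (CDH1), whose adhesion precedes gap junction assembly in epithelial cells, went up from 2894 ± 125 to 10029 ± 301 (a log2 difference of 1.79 ± 0.08 SE, adjusted p = 0.00014). TJP1, the scaffold ZO-1 that binds the tail of connexin 43, was chosen after its values were seen; it fell from 1998 ± 39.7 to 1199 ± 246 (a log2 difference of −0.76 ± 0.18 SE, adjusted p = 0.025).

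Among the genes of kinases that phosphorylate connexin 43, 14 were measured, with 3 higher, 4 lower and 7 that did not pass. Over all genes 21.1% were higher and 19.2% lower, and the list had a median log2 fold change of −0.23. MAPK3, the kinase ERK1, rose from 108 ± 2.22 to 259 ± 14.8, and AKT1 from 181 ± 9.02 to 367 ± 18.1 (log2 fold changes 1.25 ± 0.09 and 1.02 ± 0.09 SE, limma adjusted p = 0.00042 and 0.00092). The MAPK3 probe set is an x_at probe set, which can bind other transcripts. Protein kinase C alpha (PRKCA) fell from 143 ± 6.90 to 71.5 ± 8.39, and the protein kinase A subunit PRKACB from 2199 ± 103 to 1148 ± 134 (adjusted p = 0.0023 and 0.0029). SRC, chosen after its values were seen, read 218, 237 and 182 on the mock arrays and 43.2, 10.2 and 12.2 on the MALT1-labelled arrays (adjusted p = 0.0069). Only MALT1 replicate 1 was above the dim limit there.

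Genes of transcription factors linked to connexin promoters went both ways: 8 of 16 with a value rose, 3 fell and 5 did not pass, beside 21.1% of all genes that rose and 19.2% that fell (median log2 fold change 0.52, or 0.36 with dim genes at their bound). Members of AP-1, the dimer of FOS and JUN proteins whose motif stands in the GJA1 window, did not move together. FOSL1 fell from 567 ± 7.32 to 63.6 ± 5.95 (a log2 difference of −3.14 ± 0.10 SE, limma adjusted p = 6.8e-05), whereas JUND rose from 424 ± 11.7 to 2582 ± 195 (a log2 difference of 2.60 ± 0.09 SE, adjusted p = 8.1e-05). TBX3, a T-box repressor, was dim on all mock arrays and read 124 ± 3.11 on the MALT1-labelled arrays, at least 7.01-fold higher (adjusted p = 6.8e-05). Its relative TBX2, a known repressor of GJA1 and chosen here after its values were seen, read 637 ± 67.7 and was at least 35.98-fold higher (adjusted p = 0.0001). GATA3, a factor of luminal epithelium and of keratinocytes, rose from 191 ± 25.7 to 12862 ± 1303 (a log2 difference of 6.07 ± 0.15 SE, limma adjusted p = 5.3e-05). The T-box element had no match in the GJA1 window. Any part of TBX2, TBX3 or the other factors in the fall of GJA1 or GJB5 was not tested.

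Markers of epithelial type moved on the same arrays as GJA1 and GJB5. Of 11 measured squamous markers 10 fell and 0 rose (limma, 0 higher also at an unadjusted p under 0.05), where 19.2% of all genes fell; KRT16 did not pass and was dim on all MALT1-labelled arrays. Their summed signal lay between 24629 and 27393 under the MALT1 label and between 54584 and 64266 under mock. The log2 fold change was −2.86 for SERPINB5 and −2.47 for the basal keratin KRT5, and for the desmosomal cadherins DSC3 and DSG3 the log2 fold changes were −3.27 and −2.66. KRT5 was still at 1003 ± 14.3 under the MALT1 label, against 5593 ± 601 under mock, and the squamous regulator TP63 was not analysed here. All 17 luminal epithelium markers rose, where 21.1% of all genes rose, with a summed signal of 88883 to 98175 against 13466 to 14086. KRT19 and TFF1 were dim on all mock arrays and at least 703-fold and 878-fold higher on the MALT1-labelled arrays, KRT8 rose by 4.89 and the oestrogen receptor ESR1 by 3.93 on the log2 scale. The KRT8 value comes from an x_at probe set, which can bind other transcripts. Both groups are labelled as the same line, and whether the cells are the same line apart from the construct was not tested here. The part of these marker changes in the fall of the connexins was not tested.

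Markers of the other cell types checked were low in both groups. The summed signal of 4 measured leukocyte markers lay between 37.5 and 76.4 under the MALT1 label and between 19.04 and 35.6 under mock, with 1 higher (CD14) and LYZ and PTPRC dim on all arrays. That of 6 endothelial markers was 43.99 to 92.3 against 61.9 to 65.9, with 0 passing (limma, 0 at an unadjusted p under 0.05) and CDH5, KDR and VWF dim on all arrays. That of 6 fibroblast markers was 118 to 244 against 121 to 183, with 1 lower (LUM), and that of 5 hepatocyte markers, checked because GJB1 is a hepatocyte connexin, was 104 to 117 against 105 to 137, with 0 passing (limma, 2 at an unadjusted p under 0.05) and ALB dim on all arrays. The calls of CD14 and LUM lie close to the dim limit. CD14 was dim on all mock arrays and read 7.41, 27.1 and 18.2 on MALT1 replicates 1 to 3. LUM was dim on all MALT1-labelled arrays and read 17.8, 19.2 and 21.2 on mock replicates 1 to 3.

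**Figure D4:**
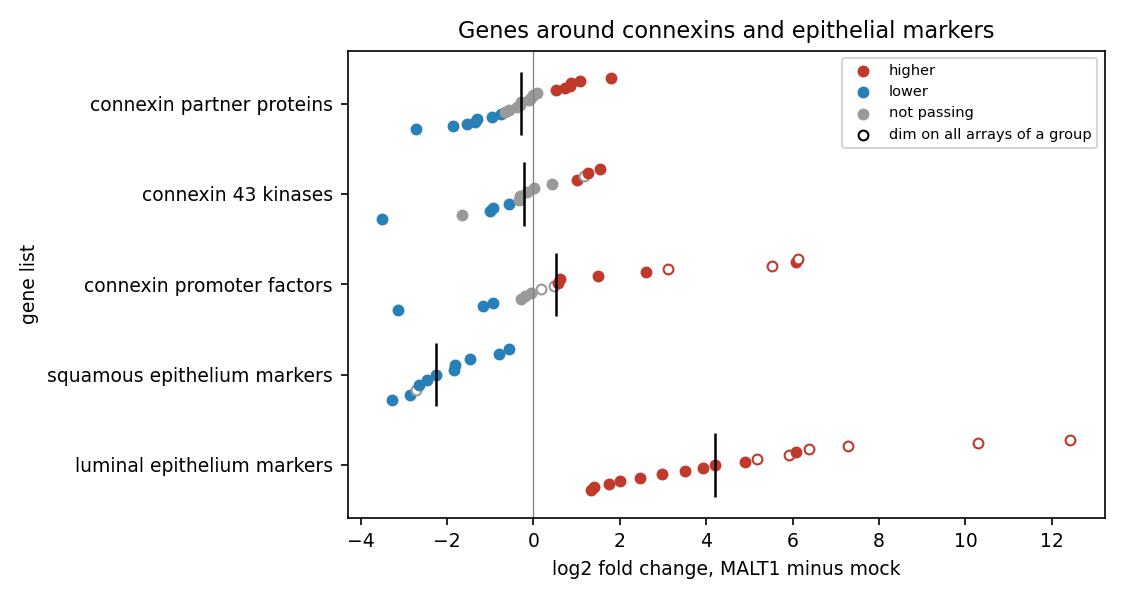
Log2 fold change (x axis, MALT1 minus mock) of each measured gene in 5 lists (y axis), by its brightest probe set; red genes rose, blue fell, grey did not pass, open points lay under the dim limit on every array of 1 group, and their distance from 0 is not a measured size, and black bars are list medians. Squamous markers lie to the left of 0, luminal markers to the right, and connexin partners and kinases on both sides.

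The genes whose profile over the 6 arrays came nearest to each connexin were named by the root mean square distance of log2(signal + 1) after subtracting each probe set's mean. Nearest to GJA1 were the RNA-binding protein gene IGF2BP3 (distance 0.06), the sorting receptor gene SORL1 (0.07) and KCTD12 (0.07), with log2 fold changes of −3.09, −3.09 and −3.05. Nearest to GJB5 were the metalloprotease inhibitor gene TIMP1 (0.05), the glutamate decarboxylase gene GAD1 (0.06) and VOPP1 (0.07), with log2 fold changes of −1.82, −1.89 and −1.89. With 2 groups of 3 arrays the distance is set mostly by the group difference, so it describes a similar size of fall.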

How the data were processed

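Biotin-labelled RNA of 6 samples was measured on Affymetrix arrays, per the labels' protocols. The authors deposited linear intensity values, 1 per probe set; no source used here names their software. The values show that each array had been scaled to a mean near 500.2 after trimming 2% at each end. Of 22277 probe sets, 62 controls were left out. Of the 22215 tested, 19064 had 1 symbol, 1043 several and 2108 none; 19052 symbols were matched by gene ID to RefSeq (GRCh38.p14).

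Values were taken as log2(signal + 1) and fitted with limma 3.58.1 in R 4.3.3 (lmFit, eBayes, group as the only term, all 6 arrays), two-sided, with Benjamini-Hochberg adjustment over all probe sets and a threshold of 0.05. The fit was tested on simulated data. Folds in the text are ratios of geometric means. A gene in a list took its brightest probe set. A gene dim on all arrays of 1 group has a bound only: the brighter geometric mean over 17.6.

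Named by rule were all members, every other measured connexin and pannexin, the 4 list genes with the smallest adjusted p, the 3 nearest profiles and direct neighbours. TJP1, SRC and TBX2 were added after their values were seen. Members, lists and the dim limit were chosen with earlier results of these data known. The number of arrays limits the precision. Alternatives were other pseudocounts (0 and 16), median centring, quantile normalization, leaving out dim probe sets, an eBayes trend, a replicate block, averaged probe sets and leaving out each array.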

Additional observations from a re-analysis of the deposited data

How the results depend on the processing

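GJA1 and GJB5 stayed lower and past the threshold under all 7 other settings of scale, normalization, filter, prior and replicate block, with log2 fold changes of −3.25 to −3.07 and −1.98 to −1.59 and adjusted p of at most 0.0070 and 0.0085. Without each array in turn they ranged from −3.17 to −3.04 and from −1.93 to −1.77. GJB1, dim throughout, ranged from −0.68 to 0.10 without each array and changed sign without mock replicate 1 (0.06) and mock replicate 2 (0.10); without mock replicate 3, at 3.24 its lowest mock value, it passed (−0.68, adjusted p = 0.036). It gave no value with dim probe sets left out. The count of other connexin and pannexin genes that fell ranged from 1 to 2 without each array, through GJC1. With each gene's probe sets averaged, 16 luminal markers rose and 10 squamous markers fell. Over all settings 5 to 6 connexin partners rose and 6 to 10 fell, and 3 to 4 kinases rose and 3 to 5 fell. Over all probe sets, 6165 to 7330 passed without each array against 7917 with all. Of 454 settings run for other named genes, 441 kept direction and side, 4 lost the call (all GJC1) and 9 changed sign: GJA3 (−0.39 to 0.85 without each array), GJD2 (−0.14 to 0.16 without each array) and NLGN3 (−0.82 to 0.73 without each array, −0.040 with pseudocount 16, −0.074 with median centring and −0.24 with quantile normalization). None of these 3 passed the threshold in any setting, and the cause was not tested. TJP1, SRC and TBX2 were not followed singly through these settings, so how far their calls hold is not known. Same-numbered arrays did not deviate together (correlations 0.01, −0.03 and −0.03 over 15474 probe sets). With 3 arrays per group this cannot exclude a pairing by replicate number, which the labels do not state. The replicate block gave 5808 calls over all probe sets, 3013 higher and 2795 lower, and changed no call of GJA1, GJB1 or GJB5. Signals under 17.6 limit what can be said of GJB1, GJA3, GJA4 and GJA5.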
